A study of Mus musculus with 10 samples.

Results

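The Toll-like receptors Tlr1, Tlr2, Tlr3, Tlr4, Tlr6, Tlr7, Tlr8, Tlr9 and Tlr13 and the adaptor Myd88 were read out by name from the counts of 24062 genes, which gave 10 members, all found in the files. RNA came from 10 mouse libraries made from cultured LSK cells (Lin-SCA1+KIT+ marrow progenitors); the study's methods name C57BL/6J mice. The 4 no Notch control (IgG) libraries, which the labels call WT, came from cells grown on human IgG1 (5 µg/mL) and harvested on day 14. DN1 (KIT++CD44+CD25-), DN2a (KIT++CD44+CD25+) and DN2b (KIT+CD44loCD25+) cells, with 2 libraries each, were sorted from cultures on the Notch ligand Delta1 fused to IgG (5 µg/mL). All cultures held SCF, FLT3 ligand, IL-6 and IL-11. IL-7 was withheld from the DN1 cultures, whereas those that gave DN2a and DN2b received 100 ng/mL of it from day 14; no IL-7 was described for the control cultures. The control cells were not described as sorted, so Notch ligand, sorting and time in culture cannot be told apart in a comparison of a DN stage with IgG, nor IL-7 from these where the stage is DN2a or DN2b, and stage and IL-7 cannot be told apart between DN1 and DN2.

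Toll-like receptors sense microbial products. Tlr1, Tlr2, Tlr4 and Tlr6 act at the cell surface on lipoproteins and lipopolysaccharide, while Tlr3, Tlr7, Tlr8, Tlr9 and Tlr13 act in endosomes on nucleic acids. All but Tlr3 signal through Myd88, which recruits the IRAK kinases and leads to NF-kB and inflammatory genes; Tlr3 signals through Ticam1 (TRIF). Macrophages, dendritic cells and neutrophils carry most of these receptors, and early T cell precursors keep some potential to form such myeloid cells.

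Summed over the 9 receptors, the level was far higher in the IgG libraries than in the sorted DN cells. The summed level was 1149, 524, 680 and 489 CPM (reads of the gene per 1000000 reads counted on genes) in the 4 IgG libraries, 11.4 and 22 CPM in DN1, 6.96 and 8.19 CPM in DN2a, and 7.68 and 11.3 CPM in DN2b. The members did not all move alike. Tlr6 and Myd88 remained well above the detection floor in all DN libraries, and the related receptor Tlr12, which is outside the 10, was higher in DN cells. A count of 3 reads was taken as the detection floor, which is 0.0848 to 0.243 CPM across libraries of 12354635 to 35367925 reads on genes. In bulk RNA, fewer cells that carry a receptor and less receptor RNA per cell cannot be told apart.

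**Figure D1:**
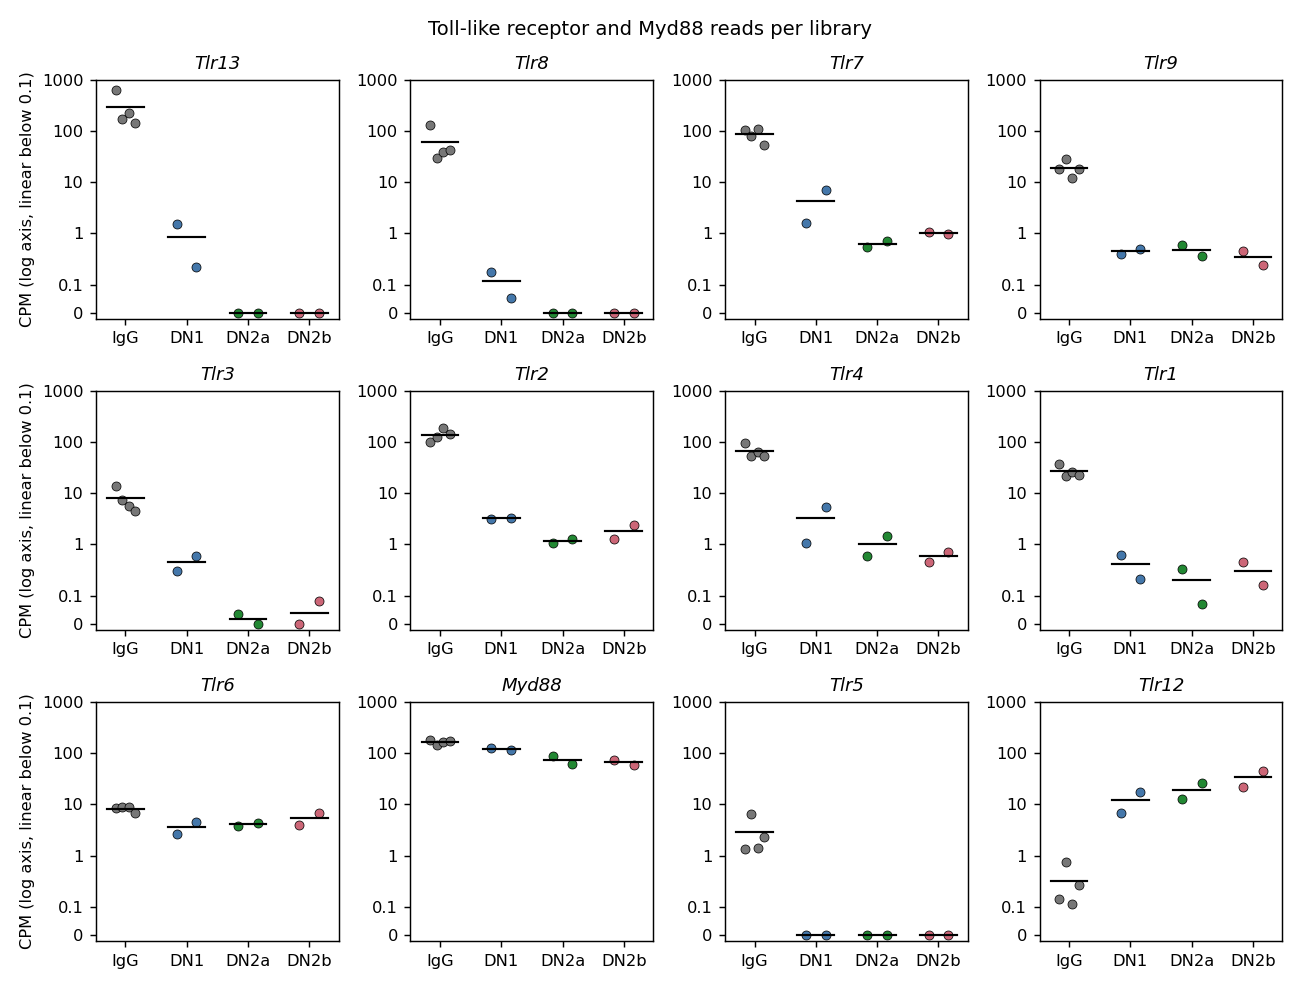
CPM of each member and of Tlr5 and Tlr12 in every library (points; horizontal lines are group means), with 4 IgG libraries and 2 libraries of each DN stage, on an axis that is logarithmic above 0.1 CPM and linear below. Tlr8 and Tlr13 are at 0 in all DN2a and DN2b libraries, Tlr6 and Myd88 stay above 2 CPM throughout, and Tlr12 runs the other way, from under 1 CPM in IgG to 45.4 CPM in DN2b.

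Among the endosomal receptors, Tlr13, which senses bacterial ribosomal RNA, was abundant in IgG and had no reads at all in DN2a and DN2b. Tlr13 read 638, 170, 229 and 143 CPM in the 4 IgG libraries, 1.5 and 0.216 CPM in DN1, and 0 in both DN2a and both DN2b libraries. The groups were far apart, and within IgG the first library stood above the other 3. The log2FC in DN1 versus IgG was -8.73 (SE 1.25, adjusted p = 0.00284 from the edgeR quasi-likelihood fit, adjusted after Benjamini and Hochberg, n = 2 and 4), and it was -7.94 without IgG replicate 1, -10.63 without DN1 replicate 1 and -8.01 without DN1 replicate 2. With 0 reads in 4 DN2 libraries only a bound can be given, so Tlr13 was at least 1815-fold lower in DN2a and at least 1346-fold lower in DN2b, against the floor of 3 reads per library (1115-fold and 825-fold without IgG replicate 1).

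Tlr8, a sensor of single-stranded RNA, had the same profile at a lower level. It read 132, 29.9, 38.1 and 42.9 CPM in IgG, 0.177 and 0.0541 CPM in DN1 (4 reads and 1 read), and 0 in every DN2a and DN2b library. Here too the first IgG library was the highest. In DN1 the log2FC was -9.23 (SE 1.16, adjusted p = 0.00177), moving to -8.43 without IgG replicate 1 and to -10.22 without DN1 replicate 1. The bounds were at least 373-fold lower in DN2a and at least 277-fold lower in DN2b (228-fold and 169-fold without IgG replicate 1).

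Tlr7, the neighbour of Tlr8 on the X chromosome (Tlr8 at chrX:167242696-167264329 and Tlr7 at chrX:167304929-167330558, both on the minus strand of GRCm38) and also a sensor of single-stranded RNA, was low in DN cells but still detected. Tlr7 read 105, 80.6, 111 and 52.9 CPM in IgG, 1.59 and 7.14 CPM in DN1, 0.546 and 0.719 CPM in DN2a, and 1.04 and 0.971 CPM in DN2b. The second DN1 library held more Tlr7 than any other DN library, but less than any IgG library. The log2FC against IgG was -4.59 in DN1 (SE 0.70, adjusted p = 0.00193), -7.23 in DN2a (SE 0.83, adjusted p = 3.46e-04) and -6.53 in DN2b (SE 0.80, adjusted p = 4.63e-04). The DN1 value ranged from -3.84 without DN1 replicate 1 to -6.14 without DN1 replicate 2.

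Tlr9, the sensor of unmethylated CpG DNA, had 3 to 16 reads in each DN library, which limits a comparison of the stages. It read 18.2, 28.4, 12.2 and 18 CPM in IgG, and in the 6 DN libraries it spanned 0.243 to 0.583 CPM, with the stages overlapping. The log2FC against IgG was -5.72 in DN1 (SE 0.62, adjusted p = 5.06e-04), -5.41 in DN2a (SE 0.61, adjusted p = 3.12e-04) and -5.84 in DN2b (SE 0.64, adjusted p = 2.63e-04).

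Tlr3, the double-stranded RNA sensor that does not use Myd88, had the lowest level per kilobase of the 10 in IgG. It read 14.1, 7.28, 5.71 and 4.52 CPM in IgG and 0.309 and 0.595 CPM in DN1. DN2a and DN2b each held 1 read in all, in 1 of their 2 libraries. The log2FC in DN1 was -4.42 (SE 0.90, adjusted p = 0.00695), and -5.03 without DN1 replicate 2. With 1 read, the IgG level was 302 times that of DN2a (95% counting interval 54.1 to 11957) and 203 times that of DN2b (36.3 to 8015). Such intervals cover counting error only. An antisense gene, Gm45542, overlaps 569 of the 5207 exonic bases of Tlr3. The strand setting of the counting was not stated in the sources used here, so reads of the pair cannot be told apart within that overlap.

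Of the surface receptors, Tlr2, which binds lipoproteins in pairs with Tlr1 or Tlr6, had the highest level in IgG. Tlr2 read 102, 125, 186 and 145 CPM in IgG, 3.18 and 3.3 CPM in DN1, 1.06 and 1.29 CPM in DN2a, and 1.3 and 2.43 CPM in DN2b. Both DN1 libraries lay above all 4 DN2 libraries. The log2FC against IgG was -5.68 in DN1 (SE 0.38, adjusted p = 5.63e-05), -6.97 in DN2a (SE 0.41, adjusted p = 1.46e-05) and -6.31 in DN2b (SE 0.40, adjusted p = 1.81e-05).

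Tlr4, the lipopolysaccharide receptor, read 95.8, 52.6, 63.7 and 53.7 CPM in IgG, 1.06 and 5.46 CPM in DN1, 0.583 and 1.44 CPM in DN2a, and 0.455 and 0.728 CPM in DN2b. As for Tlr7, the second DN1 library was the highest of the DN libraries. The log2FC against IgG was -4.61 in DN1 (SE 0.77, adjusted p = 0.00301), -6.19 in DN2a (SE 0.86, adjusted p = 7.70e-04) and -6.92 in DN2b (SE 0.91, adjusted p = 6.42e-04). The DN1 value was -3.83 without DN1 replicate 1 and -6.32 without DN1 replicate 2, and the DN2a value was -5.59 without DN2a replicate 1 and -6.95 without DN2a replicate 2.

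Tlr1 and Tlr6, close relatives that each pair with Tlr2, parted in these data. Tlr1 read 36.7, 21.7, 25.9 and 22.4 CPM in IgG and 0.0719 to 0.618 CPM in the 6 DN libraries, where it had between 1 and 14 reads. The log2FC of Tlr1 was -6.27 in DN1 (SE 0.73, adjusted p = 6.51e-04), -6.98 in DN2a (SE 0.77, adjusted p = 2.75e-04) and -6.46 in DN2b (SE 0.75, adjusted p = 3.71e-04). Leaving out the first library of a DN stage moved these to -7.13, -8.49 and -7.45. Tlr6 read 8.33, 8.98, 8.96 and 6.94 CPM in IgG, 2.61 and 4.49 CPM in DN1, 3.82 and 4.31 CPM in DN2a, and 3.97 and 6.72 CPM in DN2b. The highest DN2b library of Tlr6 was just under the lowest IgG library.

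Tlr6 was thus lower in DN1 (log2FC -1.50, SE 0.44, adjusted p = 0.0303) but did not pass the test in DN2a (-1.12, 95% interval -2.09 to -0.15, adjusted p = 0.0594) or DN2b (-0.74, interval -1.70 to 0.21, adjusted p = 0.183). The DN1 call was fragile: it was lost without DN1 replicate 1 (log2FC -1.11, adjusted p = 0.149), without IgG replicate 1 (adjusted p = 0.0559) and without IgG replicate 3 (adjusted p = 0.0691). The difference between Tlr1 and Tlr6 was not tested.

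The pair lie side by side on chromosome 5 (Tlr1 at chr5:64924679-64933563 and Tlr6 at chr5:64952031-64960097, both on the minus strand of GRCm38). Their coding sequences share 9 identical runs of at least 36 bases, the length of read that the authors aligned, with 873 bases in all. A read that falls wholly inside such a run cannot be placed in either gene; 562 of the 3332 distinct 36-base words of Tlr1 transcripts also occur in Tlr6. Counts of both genes are uncertain to that extent. The longest run, shown here because it is where reads of the 2 receptors cannot be separated, has 229 bases and lies at chr5:64925537-64925765 in Tlr1 and chr5:64953828-64954056 in Tlr6. It is read from GRCm38 on the minus strand, is in coding sequence, and has no capitals because every base is shared.
Tlr1 and Tlr6 shared run: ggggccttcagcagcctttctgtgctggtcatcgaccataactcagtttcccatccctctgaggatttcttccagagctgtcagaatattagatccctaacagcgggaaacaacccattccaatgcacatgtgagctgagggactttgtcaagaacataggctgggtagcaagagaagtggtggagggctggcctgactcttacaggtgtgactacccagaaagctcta

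Myd88, the adaptor, had the smallest change of the 10 in DN1. It read 179, 143, 168 and 175 CPM in IgG, 126 and 118 CPM in DN1, 88.2 and 60.9 CPM in DN2a, and 72.8 and 59.5 CPM in DN2b. Every DN library was below every IgG library, and both DN1 libraries were above the 4 DN2 libraries. The log2FC against IgG was -0.72 in DN1 (SE 0.22, adjusted p = 0.035), -1.24 in DN2a (SE 0.23, adjusted p = 0.00265) and -1.41 in DN2b (SE 0.23, adjusted p = 0.00166). The DN1 call was lost under scaling to library size only (log2FC -0.45, adjusted p = 0.14) and without DN1 replicate 1 (adjusted p = 0.12), DN1 replicate 2 (0.129), IgG replicate 1 (0.0671) or IgG replicate 3 (0.0713). Exons of Acaa1a on the opposite strand and the gene body of Slc22a14 on the same strand overlap Myd88, so part of its counts is uncertain.

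**Figure D2:**
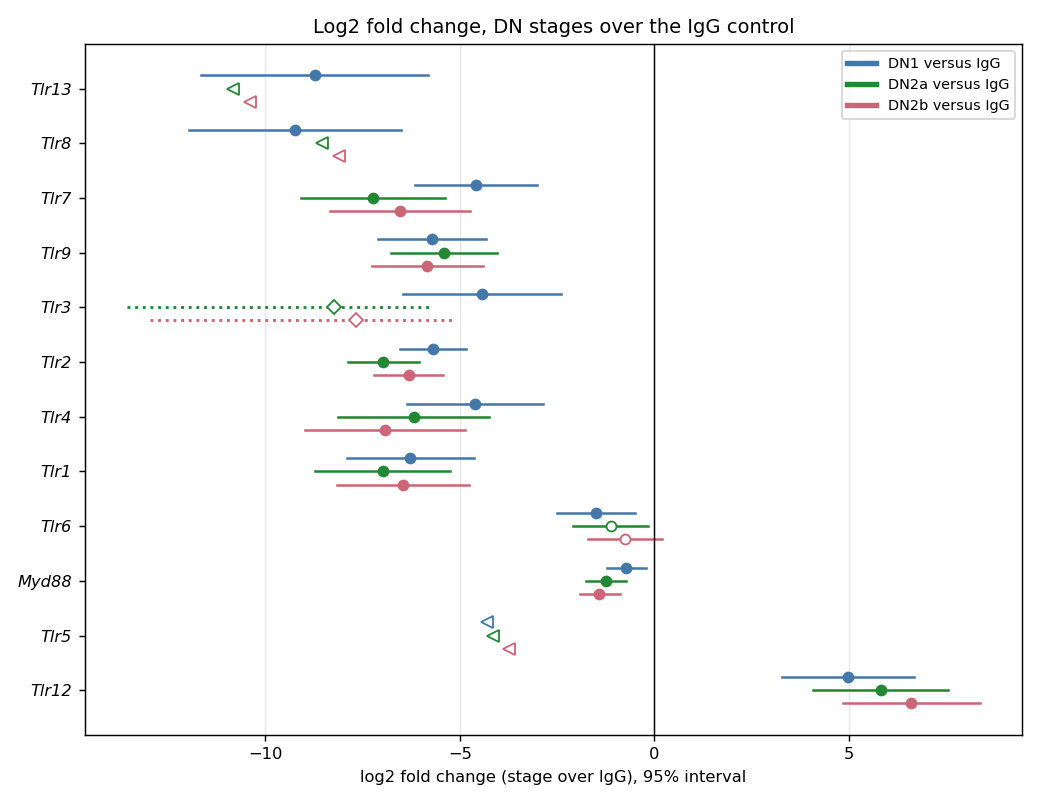
Log2FC of each DN stage over IgG for the members, Tlr5 and Tlr12, with 95% intervals. Filled circles passed the test (adjusted p under 0.05) and open circles did not; open triangles are bounds for genes with 0 reads in the stage, and diamonds with dotted lines are ratios with counting intervals for Tlr3 at 1 read. Tlr6 and Myd88 lie between -1.50 and -0.72, the other members at or below -4.42, and Tlr12 between 4.98 and 6.61.

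Counted over the members, 10 of 10 were lower in DN1 than in IgG at an adjusted p under 0.05, where 31.4% of the 12221 genes tested passed in either direction and 17.0% passed as lower. In DN2a 9 of 10 were lower, with 45.5% of all genes called and 24.3% called lower. In DN2b 9 of 10 were lower as well, against 42.5% called and 22.5% called lower. All 10 members passed the filter on low counts, which was open to them through the IgG libraries alone. All 10 had every DN1 library below every IgG library, as did 19.4% of all genes, and the same held for 10 members in DN2a (29.9% of all genes) and in DN2b (28.0%). The median log2FC of the members was -5.15, -6.97 and -6.50 in DN1, DN2a and DN2b, beside 0.01, -0.05 and -0.05 over all genes, and the members' medians were the same with Tlr8 and Tlr13 at their bounds. The 3 comparisons share the IgG libraries.

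Per kilobase of exon, Tlr13 (68.5 ± 53.8 CPM per kb, SD, n = 4) and Myd88 (64.5 ± 6.18) had the highest means in IgG, followed by Tlr2 (46.3 ± 11.9), Tlr7 (21.4 ± 6.45), Tlr8 (16.9 ± 13.3), Tlr4 (12.0 ± 3.64), Tlr1 (7.97 ± 2.08), Tlr9 (5.52 ± 1.94), Tlr6 (2.23 ± 0.256) and Tlr3 (1.52 ± 0.823). The place of Tlr13 rested on IgG replicate 1: without it the means were 62.9 CPM per kb for Myd88, 50.4 for Tlr2 and 42 for Tlr13. Among neighbours in this order, library ranges were apart only between Tlr2 and Tlr7 and between Tlr9 and Tlr6. In DN2b the order was another one. Myd88 (25.7 ± 3.65 CPM per kb, n = 2) stood first, Tlr6 (1.43 ± 0.522) came second, and Tlr2 (0.619 ± 0.264) followed, with no overlap between these 3. Tlr6, next to last in IgG, was thus the most abundant of the 9 receptors in DN2b, and in DN2a it held the same place (1.09 ± 0.0923).

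Between DN stages, no member passed the test. In DN2a versus DN1 the count was 0 of 10, where 0.401% of all genes were called, with 4 members at an unadjusted p under 0.05 (10.9% of all genes) and 2 called by DESeq2, Tlr7 and Tlr13 (3.83% of the 12192 genes to which it gave an adjusted p). In DN2b versus DN1 it was 0 of 10 by edgeR and by DESeq2, where 1.91% and 6.73% of all genes were called, with 5 members at an unadjusted p under 0.05 (13.9% of all genes). In DN2b versus DN2a it was 0 of 10 by both tools, where edgeR called 0% and DESeq2 0.238% of all genes, and 0 members were at an unadjusted p under 0.05 (2.74% of all genes). DN2a libraries lay below both DN1 libraries for 6 members (31.7% of all genes did so) and DN2b libraries for 7 (32.4%), shares to be read with 2 libraries a stage. DN2b was above DN2a without overlap for 2 members, beside 14.5% of all genes.

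The estimates between stages were wide. Tlr7 had a log2FC of -2.64 in DN2a versus DN1 (95% interval -4.32 to -0.96, adjusted p = 0.231) and -1.95 in DN2b versus DN1 (-3.58 to -0.31, adjusted p = 0.26). These rested on the second DN1 library: without it they were -1.09 and -0.40, and without the first -3.39 and -2.69. Tlr4 had -2.31 in DN2b versus DN1 (-4.21 to -0.41, adjusted p = 0.25; -0.60 without DN1 replicate 2 and -3.09 without DN1 replicate 1), Tlr2 had -1.28 in DN2a versus DN1 (-2.09 to -0.47, adjusted p = 0.227) and Myd88 had -0.68 in DN2b versus DN1 (-1.24 to -0.12, adjusted p = 0.246). Tlr6 was positive in DN2b versus DN1, at 0.76 (-0.33 to 1.84, adjusted p = 0.552), and Tlr9 was near 0 at -0.12 (-1.55 to 1.31, adjusted p = 0.96). Tlr13 went from 34 and 4 reads in DN1 to 0 reads in the 4 DN2 libraries, and Tlr8 from 4 reads and 1 read to 0.

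**Figure D3:**
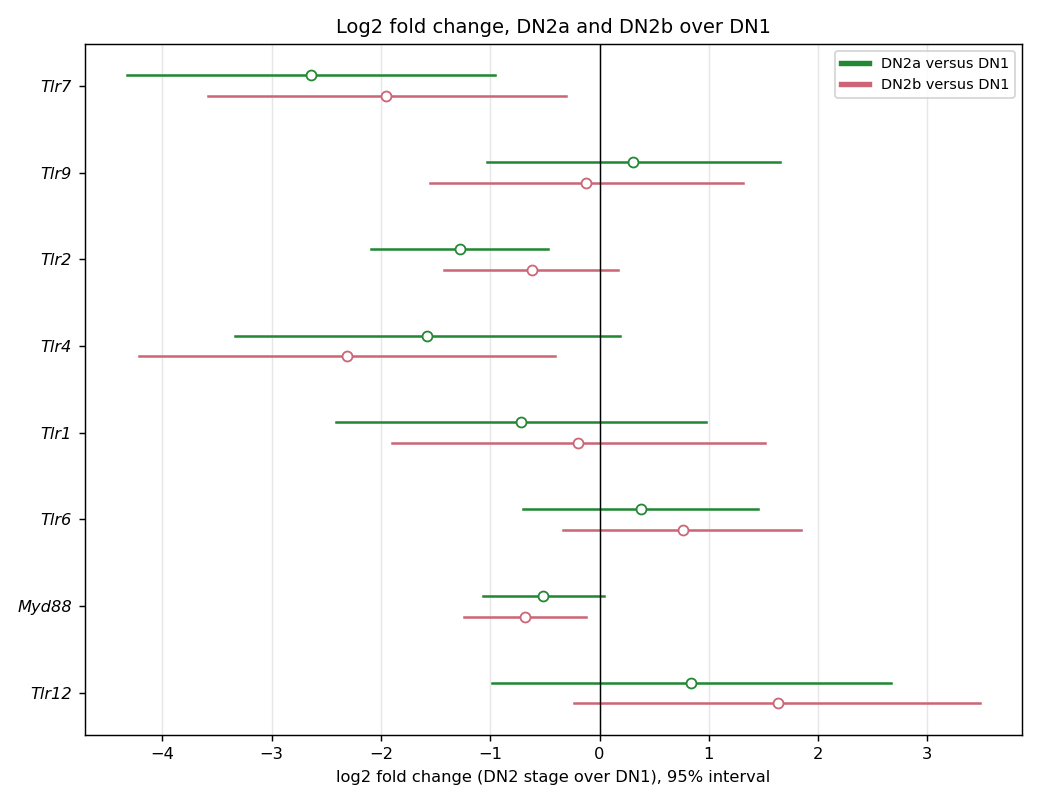
Log2FC of DN2a and DN2b over DN1 with 95% intervals, for members with over 3 reads in each stage and for Tlr12. All circles are open because none passed the test; Tlr7 in DN2a has the lowest value shown, at -2.64, and Tlr12 in DN2b the highest, at 1.63.

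Of the 3 mouse receptors outside the 10, Tlr12 moved in the opposite direction. Tlr12, which with Tlr11 senses profilin of apicomplexan parasites, read 0.145, 0.751, 0.113 and 0.27 CPM in IgG, 6.76 and 17.6 CPM in DN1, 12.9 and 25.7 CPM in DN2a, and 22.3 and 45.4 CPM in DN2b. Every DN library was above every IgG library, and in each stage the library with label year 13 read higher than the one with label year 12. The log2FC against IgG was 4.98 in DN1 (SE 0.75, adjusted p = 0.00189), 5.82 in DN2a (SE 0.77, adjusted p = 6.19e-04) and 6.61 in DN2b (SE 0.78, adjusted p = 4.03e-04). Each call held in 20 of 20 alternative fits, with values from 4.04 (without DN1 replicate 2) to 5.90 (without IgG replicate 2) in DN1; without IgG replicate 2 they were 6.75 in DN2a and 7.55 in DN2b, and without DN2a replicate 2 the DN2a value was 5.18. Within each label year the order was DN1, DN2a, DN2b from low to high. Between DN2b and DN1 it did not pass (log2FC 1.63, interval -0.23 to 3.48, adjusted p = 0.437), and the value was 1.06 without DN1 replicate 1, 1.07 without DN2b replicate 2 and 2.57 without DN1 replicate 2. With label year as a replicate block in the DN libraries it passed (1.73, adjusted p = 0.0456, beside 0.287 in the same libraries with no block), the only one of 22 alternative fits that called it. The study's methods say that the 3 stages were sorted from every LSK replicate, but the labels do not say which libraries share one. Per kilobase, Tlr12 stood at 10.7 CPM in DN2b, above each of the 9 member receptors there.

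Tlr5, the flagellin receptor, had 28 to 166 reads in the IgG libraries (1.36 to 6.56 CPM) and 0 in all 6 DN libraries. It was at least 19.6-fold lower in DN1, 17.8-fold in DN2a and 13.2-fold in DN2b (11.4, 10.3 and 7.63 without IgG replicate 2). Its adjusted p was 0.0124 in DN1, 0.0087 in DN2a and 0.0115 in DN2b, each with 1 library whose omission took it over the threshold (DN1 replicate 2, 0.0537; DN2a replicate 1, 0.058; DN2b replicate 1, 0.0585). Tlr11 had 0 reads in all 10 libraries, so these data hold no measurement of the receptor that Tlr12 works with beyond a limit of 3 reads per library.

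Promoter sequence was searched for short motifs of myeloid and inflammatory factors and for the E box. RefSeq promoters (GRCm38.p6, 250 bases before to 50 after a start site) were found for 8 of the 10 members and for Tlr5, Tlr11 and Tlr12. The motifs were GAGGAA (the core bound by PU.1), TTGCNNAA (C/EBP), a pair of GAAA words with 2 bases between them (interferon response element), GGGA and CC with 4 bases between them (NF-kB) and CANNTG (E box), read on both strands, and matches of different motifs may overlap. The core GAGGAA was present for Tlr13, Tlr8, Tlr9 and 1 of the 2 starts of Tlr1, and in 28.3% of 32851 promoters of the same length; it was in none of those of Tlr2, Tlr3, Tlr5, Tlr6, Myd88 and Tlr12. Tlr11, with 0 reads in every library, held it 2 times. Tlr12, alone among these genes with a single start, held none of the 5 motifs. Shares of all promoters were 10.8% for TTGCNNAA, 3.44% for the interferon response element, 20.7% for the NF-kB motif and 72.3% for CANNTG. A match is a description of the letters and not a site of binding.

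Tlr2, Tlr3 and Tlr5 were also lower in DN cells but held no GAGGAA, and their promoters are not shown. A link between this motif and the direction of change was not tested. Below, GAGGAA or its complement TTCCTC is in capitals. The 250 bases before the start are given for 3 receptors that hold the motif and were lower in DN cells, and for Tlr12, the receptor that was higher. They lie at chrX:106143025-106143274 on the plus strand (Tlr13), chrX:167264330-167264579 on the minus strand (Tlr8), chr9:106222348-106222597 on the plus strand (Tlr9) and chr4:128618620-128618869 on the minus strand (Tlr12), each written 5′ to 3′ on the strand of the gene.
Tlr13 promoter: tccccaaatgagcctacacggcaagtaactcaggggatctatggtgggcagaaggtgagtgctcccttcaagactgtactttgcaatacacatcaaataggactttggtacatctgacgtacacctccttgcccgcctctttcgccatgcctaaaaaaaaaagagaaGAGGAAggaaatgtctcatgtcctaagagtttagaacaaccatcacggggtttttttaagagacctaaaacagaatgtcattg
Tlr8 promoter: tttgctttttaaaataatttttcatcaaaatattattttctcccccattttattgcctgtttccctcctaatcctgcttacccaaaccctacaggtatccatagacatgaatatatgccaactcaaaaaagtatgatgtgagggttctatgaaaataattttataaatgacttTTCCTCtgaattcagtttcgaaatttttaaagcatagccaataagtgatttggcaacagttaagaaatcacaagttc
Tlr9 promoter: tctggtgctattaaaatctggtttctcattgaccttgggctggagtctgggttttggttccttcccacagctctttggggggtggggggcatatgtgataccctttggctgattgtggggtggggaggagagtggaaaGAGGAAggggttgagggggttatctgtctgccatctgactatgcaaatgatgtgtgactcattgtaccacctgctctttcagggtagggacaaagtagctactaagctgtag
Tlr12 promoter: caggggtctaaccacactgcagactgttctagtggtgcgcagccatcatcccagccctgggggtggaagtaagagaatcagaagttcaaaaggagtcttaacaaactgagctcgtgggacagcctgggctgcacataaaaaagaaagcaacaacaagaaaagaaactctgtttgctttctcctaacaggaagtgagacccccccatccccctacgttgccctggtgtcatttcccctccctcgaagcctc
In Tlr13 the core began 83 bases before the start, in Tlr9 112 bases before it with a further match at base 13 after the start, and in Tlr8 the complement began 77 bases before the start. Tlr3 held the NF-kB motif 3 times and TTGCNNAA 1 time, Tlr2 held the NF-kB motif 4 times at 2 places, and Myd88 held the interferon response element 1 time. The sequences of Tlr4 and Tlr7 were not analysed here.

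The genes that work with these receptors were taken from 7 lists of other receptors, co-receptors and chaperones, other adaptors, kinases and ubiquitin ligases, transcription factors, inhibitors and response genes, 68 genes of which 63 were tested. In DN2b versus IgG, 38 of the 63 were lower, 5 higher and 20 not called, with a median log2FC of -1.59 beside -0.05 over all genes and 22.5% of all genes called lower. A number of these DN2b calls did not hold in every alternative fit, and such genes are given with their lists. The count thus depends on the libraries and settings used. In DN1 33 were lower and 1 higher, beside 17.0% of all genes lower, and in DN2a 41 were lower and 5 higher, beside 24.3% of all genes lower.

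**Figure D4:**
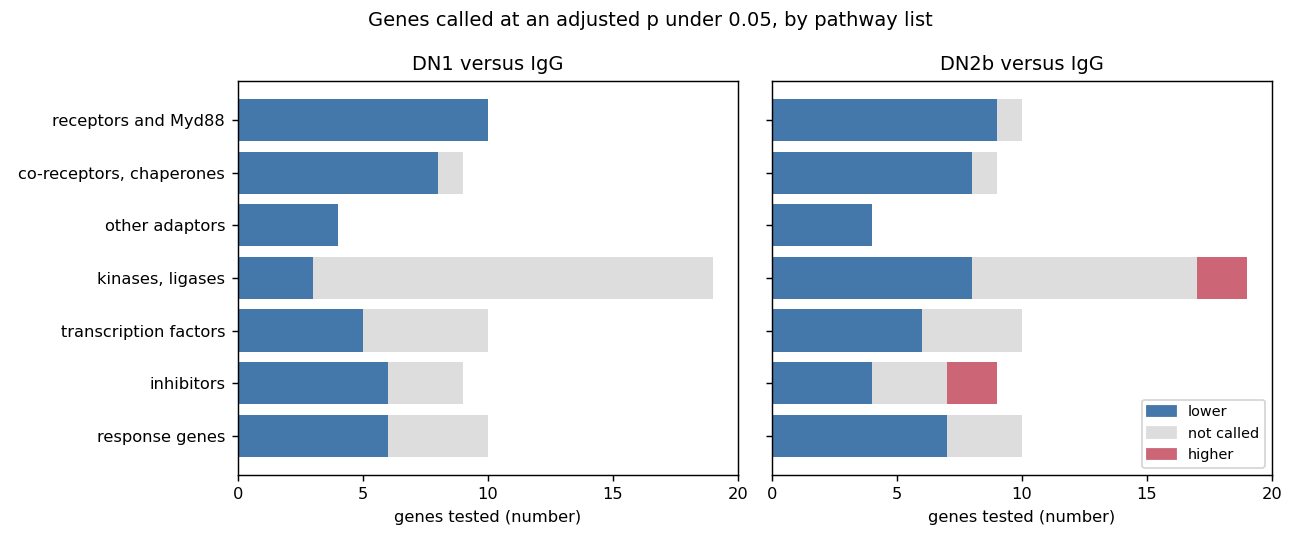
Number of tested genes of the members (top bar) and of 6 pathway lists that were lower, not called or higher at an adjusted p under 0.05, in DN1 versus IgG (left) and DN2b versus IgG (right). Co-receptors and other adaptors are almost all lower, while 16 of 19 kinases and ligases in DN1 and 9 of 19 in DN2b were not called.

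Co-receptors and chaperones were lower for 8 of 9 genes in each stage, beside 17.0%, 24.3% and 22.5% of all genes in DN1, DN2a and DN2b. The DN1 calls of Cnpy3 and Hsp90b1 held in only 8 and 14 of 20 alternative fits. In DN2b those of Ly86 and Hsp90b1 held in 18 and 17. The exception was Ly96 (MD-2), the partner of Tlr4, at 9.78 CPM in IgG and 5.04 CPM in DN2b (log2FC -1.08, interval -2.55 to 0.38, adjusted p = 0.201). Cd14, which passes lipopolysaccharide to Tlr4, averaged 258 ± 70.5 CPM in IgG (SD, n = 4) and had 0 reads in DN2a and DN2b, so it was at least 1176-fold lower in DN2b. Lbp, the lipopolysaccharide binding protein, had a log2FC of -6.98 in DN2b (SE 0.85, adjusted p = 4.44e-04), ranging to -6.31 without DN2b replicate 1 and -8.14 without DN2b replicate 2. Cd180, a Tlr4 relative of B cells and myeloid cells, averaged 138 CPM in IgG and 22.6, 9.21 and 1.25 CPM in DN1, DN2a and DN2b (DN2b versus IgG log2FC -6.90, SE 0.92, adjusted p = 6.77e-04, and -6.12 without IgG replicate 1). Unc93b1, the chaperone that carries endosomal receptors from the endoplasmic reticulum, was lower but abundant: 469 ± 70.4 CPM in IgG and 130 ± 4.92 CPM in DN2b (log2FC -1.93, SE 0.32, adjusted p = 0.00188).

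Other adaptors were lower for 4 of 4 tested genes in every stage, beside 17.0%, 24.3% and 22.5% of all genes in DN1, DN2a and DN2b. The DN2b calls of Ticam1 and Ticam2 each held in 19 of 20 alternative fits. Pik3ap1 (BCAP), which links the receptors to PI3K, went from 185 ± 139 CPM in IgG to 1.59 ± 0.5 CPM in DN2b (log2FC -7.0, SE 0.89, adjusted p = 5.51e-04; -6.24 without IgG replicate 1). Tirap, which brings Myd88 to Tlr2 and Tlr4, had a log2FC of -3.71 (SE 0.68, adjusted p = 0.00278; -4.49 without DN2b replicate 2), and Ticam1, the adaptor of Tlr3, one of -1.53 (SE 0.29, adjusted p = 0.00334).

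Of the 19 kinases and ubiquitin ligases 3 were lower in DN1, where 17.0% of all genes were. In DN2b 8 were lower and 2 higher, where 22.5% of all genes were lower and 42.5% were called in either direction. Of the 8, the calls of Irak1, Irak2, Traf3, Tab2 and Tbk1 held in 17, 19, 16, 17 and 13 of 20 alternative fits. Those of Ube2n and Peli1, the 2 higher, held in 17 and 13. Ikbke, a kinase that acts on interferon regulatory factors, fell most clearly (DN2b log2FC -2.97, SE 0.31, adjusted p = 1.96e-04). Irak4, the kinase that Myd88 recruits first, read 40.6 ± 11.9 CPM in IgG and 11.2 ± 0.0126 CPM in DN2b (log2FC -1.92, SE 0.30, adjusted p = 0.00146), and Ripk1 had a log2FC of -1.60 (SE 0.27, adjusted p = 0.00188). Traf6, the ligase downstream of the IRAK kinases, was not called (0.52, adjusted p = 0.163), nor was Map3k7 (TAK1; 0.31, adjusted p = 0.269); the pair were picked after their values were seen.

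Of the transcription factors, 6 of 10 were lower in DN2b, where 22.5% of all genes were lower. The calls of Nfkb2 and Rela, 2 of these 6, held in 16 and 18 of 20 alternative fits. The interferon regulatory factors Irf5, Irf8 and Irf7 had log2FC values of -5.13 (SE 0.39, adjusted p = 3.96e-05), -4.02 (SE 0.33, adjusted p = 6.03e-05) and -4.55 (SE 0.79, adjusted p = 0.00222). Irf5, which acts with Myd88, was also lower in DN2b than in DN1 (log2FC -2.0, SE 0.36, adjusted p = 0.0281). That call was lost without DN1 replicate 1 (0.134), DN2b replicate 1 (0.217), DN2b replicate 2 (0.105) or IgG replicate 3 (0.0509), and in 6 other settings: DN1 and DN2b fitted alone (0.194), the 3 DN stages fitted alone (0.0956, and 0.0907 with the replicate block), 2 IgG libraries in place of 4 (0.0778 for D1 and D2, 0.0527 for R1 and R2) and a 2-fold threshold (0.13). It thus held in 12 of 22 fits. In the same comparison Cd180 (log2FC -3.98, adjusted p = 0.0529) and Pik3ap1 (-3.42, adjusted p = 0.0759) did not pass but were called lower in 9 and 7 of 22 fits.

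Of the 9 inhibitors tested 4 were lower and 2 higher in DN2b, where 22.5% of all genes were lower and 42.5% called in either direction. The lower calls of Irak3, Tollip and Inpp5d held in 19, 18 and 17 of 20 alternative fits, and the higher call of Sigirr in 18. Nfkbia, the inhibitor of NF-kB that is itself induced by NF-kB, was lower (log2FC -2.31, SE 0.38, adjusted p = 0.0018). Sigirr, an inhibitor of Toll-like and IL-1 receptor signalling, was higher (1.74, SE 0.36, adjusted p = 0.00505). Socs1, an inhibitor of cytokine signalling through JAK kinases, read 3.57 ± 1.92 CPM in IgG, 1.04 ± 0.0926 CPM in DN1, 10.2 ± 2.08 CPM in DN2a and 37.5 ± 15.7 CPM in DN2b. Socs1 was higher in DN2b than in IgG (log2FC 3.32, SE 0.56, adjusted p = 0.002) and higher in DN2b than in DN1 (5.35, SE 0.81, adjusted p = 0.0156), a call lost without DN1 replicate 1 (0.126), DN1 replicate 2 (0.0501) or DN2b replicate 2 (0.0669), and with D1 and D2 as the IgG libraries (0.0511), but held in 18 of 22 fits. IL-7 was described for the DN2a and DN2b cultures and not for the others; its part in the Socs1 difference cannot be told apart from stage.

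Response genes were lower for 7 of 10 tested genes in DN2b and higher for none, where 22.5% of all genes were lower. The calls of Tnf, Il1b, Cxcl2 and Cxcl10 held in 18, 19, 18 and 18 of 20 alternative fits. Each of these was weakest without DN2b replicate 1. Il1rn, the IL-1 receptor antagonist, averaged 119 ± 75.9 CPM in IgG and had 0 reads in DN2a and DN2b, at least 545-fold lower in DN2b. The chemokines Ccl3 and Ccl4 averaged 33 ± 22.5 and 28.6 ± 12.4 CPM in IgG and had 4 and 5 reads in all in DN2b (adjusted p = 4.58e-04 and 0.0024). With genes at 0 reads placed at their bounds, the list's median log2FC in DN2b was -5.40 in place of -6.63.

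The sums of macrophage and neutrophil markers, like that of the receptors, were higher in every IgG library than in any DN library. Within groups the order of libraries differed. The highest IgG library was replicate 1 for the receptors, replicate 3 for macrophage and replicate 2 for neutrophil markers. In DN1 the first library had the lower receptor sum but the higher macrophage and neutrophil sums. Dendritic and mast cell markers did not share the contrast. The summed level of 11 macrophage markers was 8843 to 16679 CPM in IgG, 307 and 65.5 CPM in DN1, 13.7 and 18.5 CPM in DN2a, and 16.8 and 48.7 CPM in DN2b. The 11 were lower in every DN stage, beside 17.0%, 24.3% and 22.5% of all genes in DN1, DN2a and DN2b. C1qa was at 0 in all 6 DN libraries. Csf1r, the receptor that defines macrophages and their precursors, averaged 905 CPM in IgG, 23.8 CPM in DN1, 0.127 CPM in DN2a and 0.0405 CPM in DN2b. Emr1 (F4/80) read 3.67 and 0.216 CPM in DN1, 4.63 and 10.6 CPM in DN2a, and 6.89 and 40.6 CPM in DN2b, with a mean of 476 CPM in IgG. Neither Emr1 nor any other of the 11 was called higher between DN stages. Over 9 neutrophil markers the sum was 22162 to 61948 CPM in IgG, 2980 and 86.6 CPM in DN1, 10.8 and 20.2 CPM in DN2a, and 1.5 and 2.99 CPM in DN2b. The 9 dendritic cell markers summed to 75.9 to 1516 CPM in IgG, 89.8 and 228 CPM in DN1, and 14.6 to 48.2 CPM in DN2, so that IgG and DN1 overlapped. That sum joins opposite changes, since in DN1 versus IgG Flt3 was higher (log2FC 3.28) and Cd74, H2-Aa and Xcr1 were lower (-5.95, -5.66 and -4.76). The size of the Cd74 and H2-Aa changes leaned on IgG replicate 2. H2-Aa read 11.3, 438, 37.9 and 21.3 CPM in IgG and 5.96 and 0.703 CPM in DN1. Cd74 read 35.2, 753, 216 and 93.2 CPM in IgG, and Xcr1 had only 15 to 74 reads there. The 7 mast cell and basophil markers summed to 42.2 to 194 CPM in IgG, 1870 and 499 CPM in DN1, 388 and 563 CPM in DN2a, and 254 and 469 CPM in DN2b. In DN1 versus IgG 4 of them were higher and 2 lower, Prss34 and Tpsb2, where 31.4% of all genes were called and 17.0% called lower. In DN2b 1 was higher and 5 lower, where 42.5% of all genes were called and 22.5% called lower. The part that such cells have in the receptor levels was not tested.

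The sorted cells had their own markers. The 10 T cell markers summed to 2.08 to 7.59 CPM in IgG, 382 and 446 CPM in DN1, 2310 and 3204 CPM in DN2a, and 4685 and 5656 CPM in DN2b. Il2ra, which encodes CD25, averaged 24.1, 1392 and 1939 CPM in DN1, DN2a and DN2b, and Cd44 156, 48.8 and 12.1 CPM. Dtx1, a Notch target, averaged 0.368 CPM in IgG and 52.2 to 84.4 CPM in the DN stages. The 2 DN1 libraries differed in markers of other cells. The first held more neutrophil (2980 and 86.6 CPM), mast cell and basophil (1870 and 499 CPM) and erythroid markers (203 and 3.52 CPM), and more reads of Tlr13 (34 and 4) and Tlr1 (14 and 4). Its higher macrophage sum came from Lyz2, which neutrophils also express (268 and 24.6 CPM); the other 10 macrophage markers summed to 39.8 and 40.9 CPM. The second held more reads of Tlr7 (36 and 132) and Tlr4 (24 and 101), while Tlr9 had 9 in each and Tlr2 72 and 61. Its higher dendritic sum came from Flt3 (24.1 and 97.7 CPM) and Itgax (42.4 and 126 CPM), while the other 7 dendritic markers summed to 23.3 and 4.81 CPM in the first and second library. The part of these cells in the DN1 values was not tested.

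**Figure D5:**
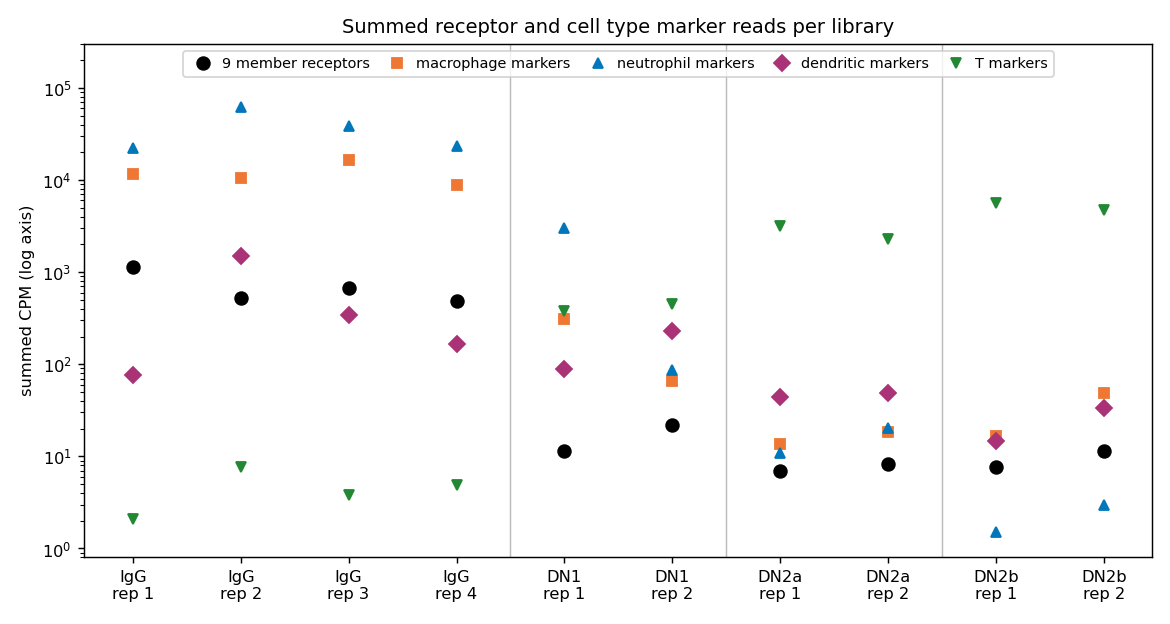
Summed CPM of the 9 member receptors and of 4 marker lists in each library, on a log axis, with vertical lines between groups. Receptors, macrophage and neutrophil markers are highest in the 4 IgG libraries and T cell markers lowest there; the receptor sum runs from 489 to 1149 CPM in IgG and from 6.96 to 22 CPM in the DN libraries.

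Genes with the profile most like that of each member over the 10 libraries were found by Pearson's r of log2(CPM + 1), given as a description since the points share 4 groups. For Tlr13 they were Slc11a1 (r = 0.9989), a metal transporter of phagosomes, and Gm5150 (0.9984). For Tlr1 they were C5ar1 (0.9981), the C5a receptor, and F7 (0.998), and for Tlr8 Slamf7 (0.998) and C3ar1 (0.9975). Tlr4 and Tlr7 had the same nearest pair, Cd302 (0.9954 and 0.9938) and P2ry12 (0.9929 and 0.9916). Tlr6 was closest to Cxcr4 (0.9857), the receptor of CXCL12, and Ppt1 (0.9745), and Myd88 to Bak1 (0.9846), a gene of the apoptosis pathway, and Frrs1 (0.9812). The nearest genes were Lilra6 (0.9945) and Hpse (0.9944) for Tlr2, Hnmt (0.9978) and Pvrl4 (0.9971) for Tlr9, and Atp6v1b2 (0.9908) and Zmynd15 (0.9896) for Tlr3.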

How the data were processed

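RNA-seq of 10 mouse libraries was analysed. The authors prepared stranded total RNA libraries, aligned the first 36 bases of read 1 to mm10 with TopHat (version 2.12 in the submitters' processing notes), tallied reads with htseq-count 0.6.1p1 (intersection-strict) and deposited the raw counts of each gene symbol. The annotation and the strand setting are not given in the sources used here. The 5 summary lines of each library (20.5% to 41% of all tallied reads) were dropped, and 27 symbols had been turned into dates, none of them a member. CPM are counts over the total of the gene rows, without further scaling.

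The 12221 genes that reached 1 CPM in 2 or more libraries entered 1 fit of 4 groups with edgeR 4.0.16 in R 4.3.3 (TMM scaling, quasi-likelihood test). Benjamini-Hochberg adjusted p-values run over all of them, with a threshold of 0.05. The common dispersion was 0.189. The SE of a log2FC is its size over the square root of F. No replicate pair was alike within sampling noise. The replicates of the DN stages and of the IgG control came from independent LSK isolates per the study's methods. The labels do not explain the control names D1, D2, R1 and R2. DESeq2 1.42.0, other scalings and filters, omission of each library, a replicate block and a 2-fold threshold were the alternatives. The scripts were tested on simulated data.

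All members are named. Of each pathway list, the 3 genes called with the smallest adjusted p in DN2b versus IgG are named, as are genes called in DN2b versus DN1 or DN2a and the 2 genes most like each member. Ly96, Unc93b1, Traf6, Map3k7 and single marker genes were named after their values were seen. So were the pathway genes listed because their calls did not hold in every alternative fit. The members and lists were chosen with earlier results of these data known. Positions and lengths come from GENCODE vM21 (GRCm38), and summaries and plots were made in Python 3.11.15 (pandas 2.3.3, scipy 1.17.1, matplotlib 3.10.9).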

Additional observations from a re-analysis of the deposited data

Results flagged for a closer look

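Of 30 genes examined in the 4 IgG libraries (the 10 members and 20 named pathway genes), 1 member and 3 pathway genes had a library that stood apart from the other 3 by Dixon's ratio (gap to the nearest library over the whole range), above its 95% critical value for 4 samples. Chance gives such a result in about 1 of 20 groups of 4. Tlr8 was highest in IgG replicate 1, at 132 CPM, with a ratio of 0.872. Cd180 (296 CPM, ratio 0.834) and Pik3ap1 (393 CPM, ratio 0.889) were highest in the same library. There Tlr13, Tlr3, Tlr4, Tlr1 and Myd88 also had their highest IgG values without passing the critical value. Irak4 was lowest in IgG replicate 2, at 22.9 CPM, with a ratio of 0.853. The 11 macrophage markers summed to 11673 CPM in IgG replicate 1 and 16679 CPM in replicate 3, where Lyz2 alone gave 5928 and 12648 CPM. Without Lyz2 the other 10 summed to 5745, 1592, 4031 and 1980 CPM in replicates 1 to 4, highest in replicate 1, which held the fewest dendritic cell markers (75.9 CPM). The part of macrophage content in these receptor values was not tested.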

How the results depend on the processing

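Of 600 values of single members in a DN stage versus IgG under other settings, 0 changed sign, 20 fell short of the threshold where the value reported had passed it, and 4 passed where it had not; all 24 concern Tlr6 or Myd88. Both genes lost their DN1 call with no filter on low counts, with only the groups compared, with D1 and D2 as the only IgG libraries, with R1 and R2 as the only ones, and beyond a 2-fold change (glmTreat). Tlr6 in DN2a passed in 4 of 20 fits (DESeq2 log2FC -1.17, adjusted p = 0.0216). DESeq2 called 2 members in DN2a versus DN1, Tlr7 (-2.65, adjusted p = 0.0142) and Tlr13 (adjusted p = 0.0461), where edgeR called 0. The cause was not tested. Without 1 library at a time, some uncalled log2FC values changed sign: in DN2a versus DN1, Tlr1 (-2.21 to 0.16), Tlr4 (-2.36 to 0.13), Tlr6 (-0.01 to 0.90) and Tlr9 (-0.05 to 0.55); in DN2b versus DN1, Tlr1 (-1.18 to 0.67) and Tlr9 (-0.69 to 0.26); and in DN2b versus DN2a, Tlr1 (-0.47 to 2.02), Tlr4 (-1.33 to 0.03), Tlr6 (-0.01 to 0.69) and Myd88 (-0.38 to 0.08). The number of all genes called, which sets the background, ran from 1562 (glmTreat) to 4633 (DESeq2) around 3834 in DN1 versus IgG, from 2526 to 6262 around 5559 in DN2a and from 2365 to 5913 around 5190 in DN2b by the same 2 settings, from 0 (without DN2a replicate 1) to 467 (DESeq2) around 49 in DN2a versus DN1, from 50 (without DN2b replicate 2) to 820 (DESeq2) around 233 in DN2b versus DN1, and up to 29 (DESeq2) from 0 in DN2b versus DN2a. Scaling to library size only moved the median of all genes by 0.27 in DN1 versus IgG, -0.20 in DN2a versus DN1 and -0.19 in DN2b versus DN1, and higher genes made up 61.4% of the DN1 calls in place of 45.7%. With DESeq2 they made up 26.6% in place of 49.0% in DN2a versus DN1 and 41.3% in place of 53.2% in DN2b versus DN1. With label year as a replicate block in the DN libraries, 0 members were called in each of the 3 comparisons of stages, as without the block; all genes called were 67 against 32 in DN2a versus DN1 and 238 against 180 in DN2b versus DN1. Deviations of same-year libraries correlated at 0.0583, 0.211 and 0.465, and the labels do not say what the dates stand for or which libraries share an LSK isolate. With 2 libraries a stage, depth limits Tlr1, Tlr3, Tlr8, Tlr9 and Tlr13, which had 34 reads or fewer in every DN library.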
